A study of Rattus norvegicus with 69 samples.

Results

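Liver RNA of 69 rats was searched for the transcripts of the receptors that bind gut hormones given in the study or their relatives, and of dipeptidyl peptidase-4, a peptidase that cuts several gut hormones. The 6 genes were picked by name from the gene column of the count table, with earlier results of these data known. They include the genes of the glucagon receptor (Gcgr), the GLP-1 receptor (Glp1r) and the GIP receptor (Gipr). The others are the neuropeptide Y receptor genes Npy1r and Npy2r, and Dpp4, which encodes the peptidase. These 6 are among the 38513 genes in the table. Only Gcgr and Dpp4 were detected in every library, and neither differed between the treatment groups past an adjusted p of 0.05 in the main test, by edgeR. After gastric bypass, compared with a sham operation, Dpp4 passed with another tool, limma-voom with a weight for each library. It also passed with edgeR once 6 libraries that lay apart were left out, a choice made after seeing the data. These 6 include the sham liver with the lowest Dpp4, but leaving out any 1 library alone did not make Dpp4 pass. In the other 9 of 11 alternative settings, DESeq2 among them, Dpp4 did not pass. In the study's methods, which cover the operated and drug-treated groups, adult male Wistar rats had been made obese on a high-fat diet with 60% of its calories from fat over about 6 weeks and then followed for 24 days with free choice of a high-fat and a low-fat diet. The series holds 14 livers after Roux-en-Y gastric bypass (RYGB), 8 labelled BWM, 6 labelled Lean and 12 after a sham operation, and from the drug arm 11 livers of the combination liraglutide+PYY3-36, 5 of PYY3-36 alone, 5 of liraglutide alone and 8 of saline. Liraglutide, a GLP-1 analogue, was injected under the skin at 0.4 mg/kg/day, PYY3-36, the form of peptide YY that prefers the Y2 receptor, was delivered by an osmotic minipump at 0.1 mg/kg/day, the combination group received both, and saline was given by both routes. Livers were taken after an overnight fast. BWM and Lean are named in the labels only, and what was done to these rats is not given in the sources used here. Some rats of the combination and saline groups had a longer feeding period, as many as these groups have libraries in batch A (6 and 3), and the labels do not say which rats these were.

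The receptors for glucagon, GLP-1 and GIP are class B G protein-coupled receptors that act mainly through the stimulatory G protein and cAMP, whereas the neuropeptide Y receptors act through inhibitory G proteins. In liver, glucagon acting on its receptor on hepatocytes promotes glycogen breakdown, gluconeogenesis and amino acid catabolism, while the GLP-1 and Y2 receptors are best known from the pancreas and from neurons. Dipeptidyl peptidase-4 is a membrane-bound and shed serine peptidase that cuts a dipeptide from the N-terminus of GLP-1, of GIP and of full-length peptide YY. It is made by hepatocytes, bile duct epithelium and T cells, among others. RNA of whole liver was measured, so fewer cells of a type and less RNA per cell cannot be told apart.

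The labels give 2 batches. RYGB, sham, liraglutide+PYY3-36 and saline have libraries in both (11 and 3, 7 and 5, 6 and 5, and 3 and 5 in batch A and batch B), all BWM and Lean libraries are of batch A, and all PYY3-36 and liraglutide libraries are of batch B. Total counts were 9110860 to 27531568 in the 28 libraries of batch B and 18037046 to 27559144 in the 41 of batch A, and the 3 RYGB libraries of batch B were among the shallowest, at 9110860, 13941960 and 10759126. In a principal component analysis 6 libraries of batch B lay apart (3 of liraglutide+PYY3-36 and 1 each of sham, PYY3-36 and liraglutide; first component 112 to 159, against at most 80.0 in the other 63). The tissue label fitted its markers as a sum, since 10 hepatocyte markers together were at 65994 to 444151 CPM (counts per 1000000 of a library's scaled total). Of other tissues, 8 of 11 pancreas, 6 of 8 nerve and 3 of 7 intestinal markers had a median of 0. The pancreas markers summed to 8.01 to 97.3 CPM and the intestinal ones to 0.717 to 15.1 CPM.

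The promoters of both detected genes and of Glp1r are shown, so that the start of a class B receptor gene with many reads and of one with hardly any can be read side by side. Each is the 250 bases before the transcription start in RefSeq on build GRCr8, 5′ to 3′ on the gene's strand, with capitals for matches on either strand to a GC box (GGGCGG) or a CCAAT box (CCAAT). They lie at chr10:106306553-106306802 (Gcgr, + strand), chr3:67452423-67452672 (Dpp4, - strand) and chr20:8973143-8973392 (Glp1r, + strand).
Gcgr: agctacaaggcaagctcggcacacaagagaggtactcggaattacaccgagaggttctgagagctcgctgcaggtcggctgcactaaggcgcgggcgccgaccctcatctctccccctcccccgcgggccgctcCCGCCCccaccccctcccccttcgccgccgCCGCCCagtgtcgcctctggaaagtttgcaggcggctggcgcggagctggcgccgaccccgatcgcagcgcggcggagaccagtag
Dpp4: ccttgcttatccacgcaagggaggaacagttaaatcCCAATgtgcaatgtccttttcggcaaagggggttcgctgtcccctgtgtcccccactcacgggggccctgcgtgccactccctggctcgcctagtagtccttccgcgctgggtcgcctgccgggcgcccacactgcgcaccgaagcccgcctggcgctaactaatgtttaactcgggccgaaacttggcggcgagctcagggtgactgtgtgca
Glp1r: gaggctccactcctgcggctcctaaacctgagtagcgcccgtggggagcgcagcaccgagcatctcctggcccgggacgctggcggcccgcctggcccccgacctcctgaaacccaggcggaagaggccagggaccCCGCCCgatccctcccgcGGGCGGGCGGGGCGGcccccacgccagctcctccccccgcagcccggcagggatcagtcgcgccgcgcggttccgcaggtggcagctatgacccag
The Gcgr promoter holds 2 GC boxes, the Glp1r promoter 4 (some of them overlapping) and the Dpp4 promoter a single CCAAT box and no GC box. None of the 3 holds a TATA box (TATAAA) or a full cAMP response element (TGACGTCA). Of 33469 rat promoters of this length, 30.5% hold a GC box, 34.02% a CCAAT box, 12.9% a TATA box and 1.59% a cAMP response element. The printed Gcgr and Glp1r promoters have 28 and 27 CpG dinucleotides, against 19 in the Dpp4 promoter and a median of 5 over all promoters. Their share of G and C bases is 70% and 75.6%, against 62.4% in the Dpp4 promoter and a median of 51.2%. The Gcgr start used is the outermost one in RefSeq. Another Gcgr start has 0 GC boxes and 13 CpG dinucleotides in the 250 bases before it. Which start liver uses was not tested. A match of letters is a description and not a binding site.

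Gcgr was the most abundant of the 6 transcripts. The gene (ID 24953) lies on chromosome 10 at 109707863 to 109716253, plus strand, in build Rnor_6.0, with a combined exon length of 2631 bases. Its reads numbered 1732 to 7364 per library (median 4054), which is 110 to 537 CPM, and pooled over all libraries its level was 76.0 RPKM (CPM per kilobase of exon). Dpp4 (ID 25253) lies on chromosome 3 at 48291055 to 48372672, minus strand, with 4860 bases of exon. It had 780 to 4059 reads per library (median 2379), 59.4 to 158 CPM, and a pooled level of 23.1 RPKM, so that per length Gcgr RNA was the more abundant of the pair.

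The 4 other receptors were at or near 0 (the plot of reads by gene). A library with no read of a gene still allows up to 3 reads, which is 0.106 to 0.280 CPM depending on its depth. Glp1r, the target of liraglutide (ID 25051; chromosome 20, 9586075 to 9626228, plus strand), had 6.5 reads in all 69 libraries together, in 7 libraries and never more than 1 in a library; the value of 0.5 comes from a read shared with another place or gene. No Glp1r read was found in the 5 liraglutide, 5 PYY3-36 and 6 Lean libraries, against 2 reads in RYGB, 1.5 in BWM and 1 each in the liraglutide+PYY3-36, sham and saline groups. The exact 95% Poisson interval of its pooled level, 0.000502 to 0.00298 RPKM, covers counting error only, as do the other intervals and floors. Gipr (ID 25024; chromosome 1, 80063047 to 80073223, minus strand) had 31 reads in 23 libraries, at most 2 in a library, with 8 reads in RYGB, 4 in sham, 3 in liraglutide+PYY3-36 and 0 in the 8 saline libraries. Neither gene passed the filter on low counts, so differences between groups were not tested.

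**Figure D1:**
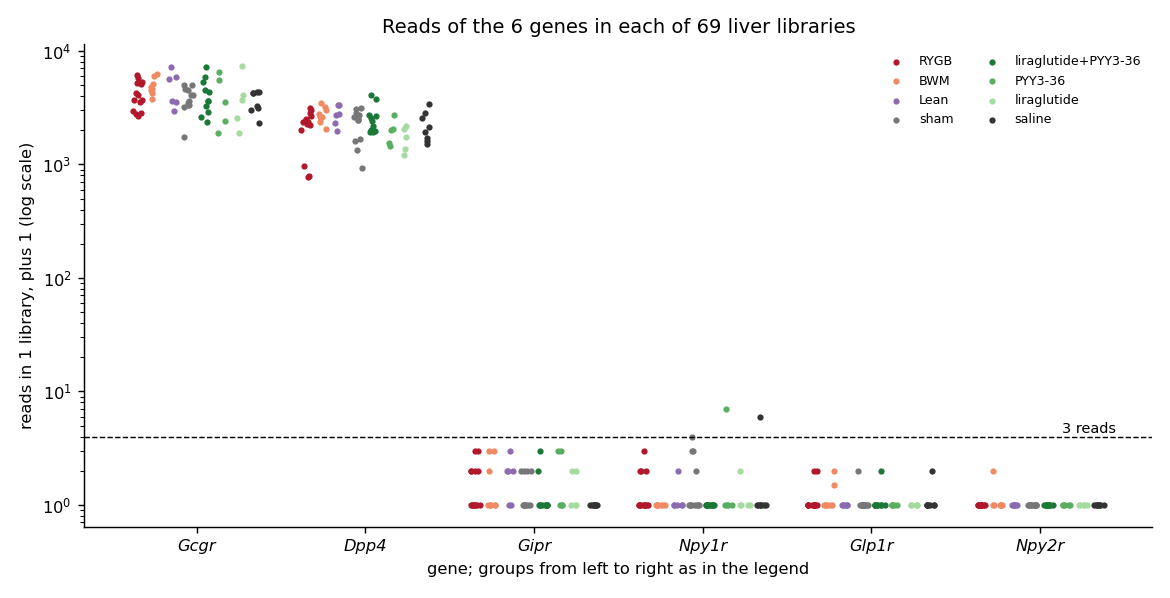
Reads per library, plus 1, on a log axis for each of the 6 genes in the 69 libraries, 1 point a library, coloured by group. Gcgr and Dpp4 have at least 1732 and 780 reads in every library, and the other 4 genes stay at or under the dashed line at 3 reads in all but 2 libraries.

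Npy2r, the receptor with the highest preference for PYY3-36 (ID 66024; chromosome 2, 181528949 to 181538145, minus strand), had 1 read in the whole series, in a BWM library. Its pooled level of 0.000208 RPKM has an upper 95% limit of 0.00116. Npy1r (ID 29358; chromosome 16, 24779480 to 24789131, minus strand) binds full-length peptide YY and neuropeptide Y and had 26 reads in 12 libraries. Of these, 6 fell in 1 PYY3-36 library (replicate 5, 0.421 CPM) and 5 in 1 saline library (replicate 6, 0.293 CPM), the only libraries above 3 reads for any of the 4 genes. The other 4 PYY3-36 libraries and the other 7 saline libraries had none, nor had any of the 11 liraglutide+PYY3-36 libraries. RYGB livers held 5 Npy1r reads in 4 libraries and sham livers 8 reads in 4, with at most 3 in a library. Low-count filtering kept 2 of the 6 genes, Gcgr and Dpp4, and the tests concern only these.

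The level of Gcgr varied widely within groups. In RYGB livers it was 110 to 537 CPM (median 195), against 126 to 333 CPM (median 160) in sham livers. In BWM livers it was 143 to 285 CPM (median 194) and in Lean livers 139 to 373 CPM (median 192). In the drug groups it was 139 to 270 CPM (median 181) with liraglutide+PYY3-36, and 164, 269, 191, 284 and 132 CPM in the 5 PYY3-36 livers. The 5 liraglutide livers had 216, 482, 214, 139 and 152 CPM, and the saline livers 133 to 258 CPM (median 180). All groups overlapped. By mean, the order from high to low was liraglutide (241 ± 139 CPM, SD), Lean (222 ± 91.0), RYGB (211 ± 101), PYY3-36 (208 ± 66.1), sham (201 ± 75.7), BWM (200 ± 41.0), saline (191 ± 55.5) and liraglutide+PYY3-36 (191 ± 46.7), and no neighbours in this order differed beyond their spread. These means pool both batches, over which the groups are unequally spread, and the order differed within a batch. In batch B the means were 326 (RYGB, n = 3), 248 (sham), 241 (liraglutide), 216 (saline), 208 (PYY3-36) and 183 CPM (liraglutide+PYY3-36). In batch A they were 222 (Lean), 200 (BWM), 197 (liraglutide+PYY3-36), 179 (RYGB), 167 (sham) and 151 CPM (saline).

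The order of Dpp4 was another one. Its mean was highest in Lean livers (124 ± 23.2 CPM, SD), followed by liraglutide+PYY3-36 (119 ± 15.4), saline (112 ± 17.0), sham (112 ± 17.3), BWM (111 ± 10.2), PYY3-36 (108 ± 21.5), liraglutide (104 ± 17.6) and RYGB (99.3 ± 19.5). The ranges of all neighbours in this order overlapped too. These means also pool both batches, and the order differed within a batch. In batch A the means were 127 (saline, n = 3), 124 (Lean), 122 (sham), 117 (liraglutide+PYY3-36), 111 (BWM) and 107 CPM (RYGB). In batch B they were 120 (liraglutide+PYY3-36), 108 (PYY3-36), 104 (liraglutide), 103 (saline), 97.4 (sham) and 70.5 CPM (RYGB). Relative to its mean, Dpp4 varied less than Gcgr within each group, as the plot of levels by group shows.

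**Figure D2:**
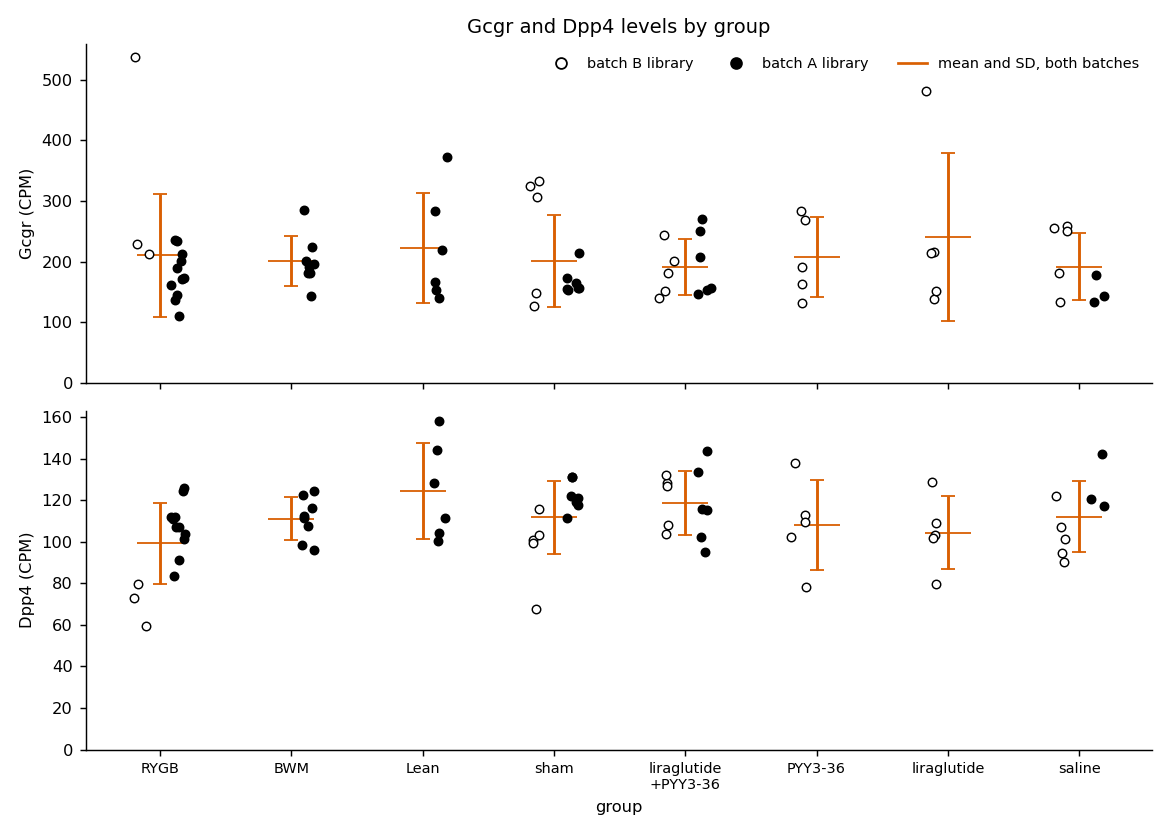
Levels of Gcgr (top) and Dpp4 (bottom) in CPM by group, 1 point a library (batch B open, batch A filled), with the mean and SD over both batches. All groups overlap for both genes, and the lowest Dpp4 values include the 3 RYGB libraries of batch B (59.4 to 79.5 CPM).

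RYGB was compared with sham to ask what the operation does to the liver beyond surgery itself. In batch A, Dpp4 was at 83.5 to 126 CPM in the 11 RYGB livers (median 107) and at 111 to 131 CPM in the 7 sham livers (median 121). In batch B it was at 72.7, 79.5 and 59.4 CPM in the 3 RYGB livers and at 101, 103, 99.4, 116 and 67.8 CPM in the 5 sham livers. RYGB values thus lay mostly at the lower end, with overlap in both batches. The log2 fold change, RYGB over sham, was -0.23 (SE 0.0921, 95% interval -0.41 to -0.05) with p = 0.0147 and an adjusted p of 0.208 in edgeR's quasi-likelihood test, so Dpp4 did not pass. Without the 6 libraries that lay apart, an alternative chosen after seeing the data, it was -0.28 with an adjusted p of 0.0323. Of these 6, only sham replicate 12 belongs to the groups compared here. Its Dpp4, at 67.8 CPM, was the lowest of all sham livers, so leaving it out raises the sham level. Leaving out any 1 RYGB or sham library, this one included, gave an adjusted p of 0.0988 to 0.338 by edgeR. No library left out alone thus made Dpp4 pass. Limma-voom, run with a quality weight for each library, gave -0.24 on all libraries with an adjusted p of 0.0205. DESeq2, without such weights, gave -0.23 with an adjusted p of 0.151.

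For Gcgr, the 11 RYGB livers of batch A had 110 to 236 CPM (median 173) and the 7 sham livers 153 to 214 CPM (median 156). In batch B the 3 RYGB livers had 537, 229 and 212 CPM and the 5 sham livers 307, 324, 333, 148 and 126 CPM. Groups overlapped in both batches. The log2 fold change, RYGB over sham, was 0.15 (SE 0.181, 95% interval -0.21 to 0.51, adjusted p = 0.841), and leaving out the 1 RYGB library with 537 CPM turned it to -0.02. In this comparison 0 of the 2 tested members passed by edgeR (0 by DESeq2, and by limma-voom 1, Dpp4), where 3.12% of all 16676 tested genes did (520 genes). At an unadjusted p under 0.05 there was 1 member (Dpp4) by edgeR.

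**Figure D3:**
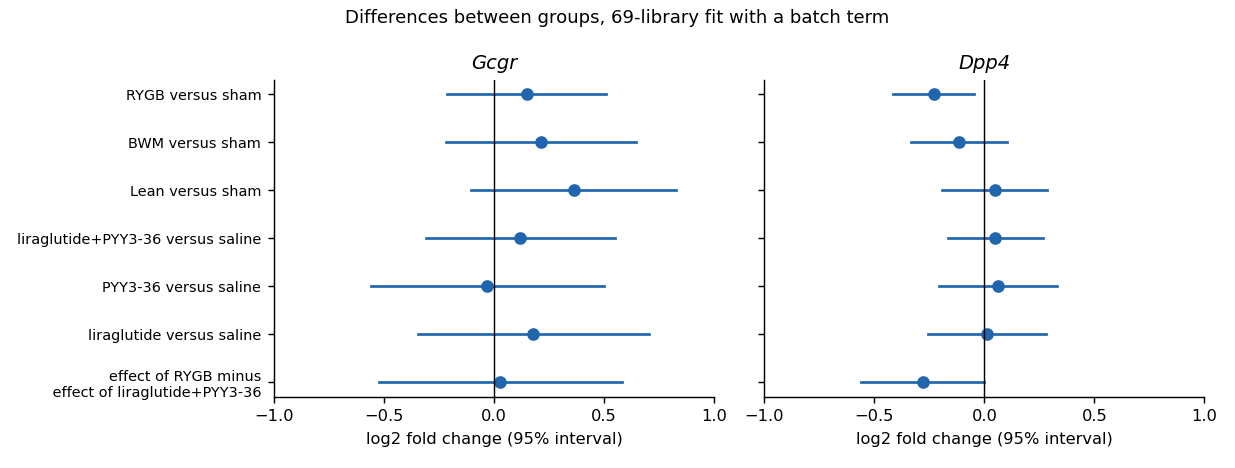
Log2 fold changes of Gcgr (left) and Dpp4 (right) with their 95% intervals in 6 comparisons and for the effect of RYGB minus the effect of liraglutide+PYY3-36, from 1 fit of 69 libraries with a term for batch. The interval of Dpp4 in RYGB versus sham, -0.41 to -0.05, is the only one of these 14 that leaves out 0.

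Treatment with the hormones was compared with saline. Gcgr differed by 0.12 on the log2 scale with liraglutide+PYY3-36 (95% interval -0.31 to 0.55), by -0.03 with PYY3-36 (-0.56 to 0.50) and by 0.18 with liraglutide (-0.35 to 0.70). The liraglutide value rested on 1 library, replicate 2 with 482 CPM, and was -0.24 without it. Dpp4 differed by 0.05 with liraglutide+PYY3-36 (-0.16 to 0.26), by 0.06 with PYY3-36 (-0.21 to 0.33) and by 0.01 with liraglutide (-0.26 to 0.28). All adjusted p-values of these 6 tests by edgeR were between 0.827 and 0.999. Calls over all genes were as rare, with 0.006% for liraglutide+PYY3-36 (1 gene), 0% for PYY3-36 and 0.006% for liraglutide (1 gene), so that 0 of 2 members is near the background. The count for liraglutide was 56 genes without replicate 2, and limma-voom called 20 genes for liraglutide+PYY3-36. No member was under 0.05 even before adjustment, and DESeq2 and limma-voom called 0 members as well. For PYY3-36, where no gene passed by edgeR, 826 genes were under 0.05 before adjustment, and both DESeq2 and limma-voom likewise called 0 genes. Over the 3 comparisons the intervals reach from -0.56 to 0.70 on the log2 scale for Gcgr and from -0.26 to 0.33 for Dpp4. The 3 drug comparisons share the 8 saline libraries.

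BWM and Lean were set against sham, the 12 libraries that the RYGB comparison also uses. Gcgr differed by 0.21 in BWM (95% interval -0.22 to 0.64) and by 0.36 in Lean (-0.10 to 0.83) on the log2 scale, and Dpp4 by -0.12 (-0.34 to 0.10) and 0.05 (-0.19 to 0.28). None passed by edgeR, where 0.042% of all genes did for BWM and 0.612% for Lean (102 genes, and 60, 55 and 59 without Lean replicates 1, 2 and 3). The Lean value of Gcgr rested in part on replicate 1 with 373 CPM, the highest of batch A, and was 0.15 without it. At an unadjusted p under 0.05 there were 0 members in both comparisons by edgeR, and DESeq2 and limma-voom called 0.

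The effect of RYGB minus the effect of liraglutide+PYY3-36 was -0.28 for Dpp4 on the log2 scale (95% interval -0.56 to 0.00, p = 0.0503, adjusted p = 0.405 by edgeR) and 0.03 for Gcgr (-0.52 to 0.58). Neither passed, and 0.036% of all genes did. A test of any difference among the 8 groups gave an adjusted p of 0.252 for Dpp4 and 0.867 for Gcgr, with 4.31% of all genes past the threshold.

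Both genes differed between the batches. In the same edgeR fit, batch B was higher than batch A for Gcgr by 0.45 on the log2 scale (SE 0.142, adjusted p = 0.00460), with 231 ± 99.4 CPM (SD, n = 28) in batch B and 188 ± 51.1 CPM (n = 41) in batch A. Dpp4 was lower in batch B, at -0.28 on the log2 scale (SE 0.0748, adjusted p = 0.000895), with 103 ± 19.9 CPM in batch B and 116 ± 15.3 CPM in batch A. Such differences were common, since 60.6% of all tested genes passed in this contrast. For both genes the difference between batches was larger in size than each of the 6 differences between groups.

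Depth moved with both genes in opposite directions (the plot of levels against depth). The level in CPM, which is already scaled to depth, fell with the total count for Gcgr in batch B (Pearson r = -0.62, Spearman rho = -0.60, n = 28, permutation p = 0.000500 and 0.000850, adjusted over 4 relations 0.00100 and 0.00170). In batch A it did so less (r = -0.42, rho = -0.35, n = 41, permutation p = 0.00655 and 0.0245, adjusted 0.00655 and 0.0245), and there the relation no longer held without the 2 libraries farthest from the median depth (r = -0.30, permutation p = 0.0642). For Dpp4 the level rose with the total count in batch B (r = 0.62, rho = 0.62, permutation p = 0.000340 and 0.000570, adjusted 0.00100 and 0.00170) and in batch A (r = 0.43, rho = 0.46, permutation p = 0.00503 and 0.00262, adjusted 0.00655 and 0.00349). Both held without the 2 farthest libraries (r = 0.54 in batch B and 0.34 in batch A). In batch B of Gcgr r was -0.50 without the 2. Groups were pooled within each batch and the permutations ignored group, so these p-values do not separate depth from group. In batch B the 3 RYGB libraries, among the shallowest, had 59.4 to 79.5 CPM of Dpp4 and 212 to 537 CPM of Gcgr. With the total count as a covariate, an alternative chosen after seeing the data, the log2 fold change of RYGB over sham was -0.17 for Dpp4 (adjusted p = 0.367 by edgeR) and -0.03 for Gcgr.

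**Figure D4:**
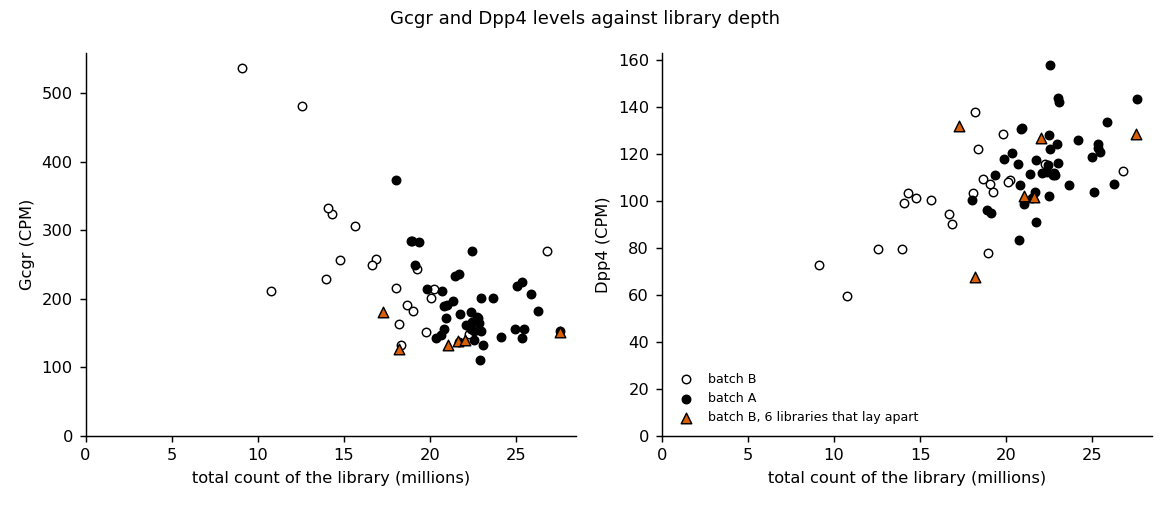
Levels of Gcgr (left) and Dpp4 (right) in CPM against the total count of each library, for batch B (open), batch A (filled) and the 6 libraries of batch B that lay apart (triangles). Gcgr is highest in shallow libraries (r = -0.62 in batch B), and Dpp4 is lowest in them (r = 0.62).

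The 6 libraries that lay apart had low Gcgr, 126 to 181 CPM, against 133 to 537 CPM in the other 22 of batch B. Their Dpp4 was at 67.8 to 132 CPM, within the 59.4 to 138 CPM of the other 22. Across all 69 libraries, after group and batch means were taken out, Gcgr and Dpp4 varied in opposite directions (Pearson r = -0.52 of log2 CPM). The genes whose residual pattern was most like that of Gcgr, of 12171 compared, were Rab24 (r = 0.93), Fbxw4 (0.92), Dvl1 (0.92), Irf3 (0.92) and Clk3 (0.92), and the least like were Tram1 (-0.88), Hspa9 (-0.87) and Tmed5 (-0.84). For Dpp4 they were Slc39a1 (0.77), Ctsb (0.77), Anxa11 (0.76), Ivd (0.74) and Frrs1 (0.74), and at the other end Ewsr1 (-0.78), Urb1 (-0.74) and Ppp1r13b (-0.73). These are descriptions over libraries that share depth and batch structure.

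Other cells that could supply Dpp4 RNA were looked at by their markers. The summed level of 12 T and NK cell markers was 15.9 to 50.7 CPM in RYGB livers (median 31.2) and 16.5 to 48.3 CPM in sham livers (median 28.7), and that of 8 bile duct markers 11.9 to 26.6 CPM (median 17.1) and 10.3 to 26.9 CPM (median 16.7). No marker of these 2 lists had a median of 0 over all 69 libraries. In RYGB versus sham, 0 of the 9 tested T and NK cell markers and 0 of the 8 bile duct markers passed the test by edgeR. Before adjustment, 1 of each list was under 0.05. In that comparison, where Dpp4 was at -0.23, 1 of the 9 T and NK cell markers was positive, with a median log2 fold change of -0.28, and 5 of the 8 bile duct markers were, with a median of 0.05. The part of these cells in the Dpp4 level was not tested. Hepatocyte markers summed to 65994 to 282201 CPM in RYGB livers and 91220 to 206307 CPM in sham livers, and none of the 10 passed (2 under 0.05 before adjustment). Among the 10, 2 were positive, and their median log2 fold change was -0.14.

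Gcgr was also more abundant per length than the related receptors. Of 22 other gut hormone and class B receptor genes and accessory proteins, 21 were in the table and 9 passed the filter. The most abundant receptors were Vipr1, for vasoactive intestinal peptide, at a mean of 6.47 RPKM, and Pth1r, for parathyroid hormone, at 2.60 RPKM, against a pooled 76.0 RPKM for Gcgr. Npy5r, Ghsr, Cckar and Cckbr, receptors of neuropeptide Y, ghrelin and cholecystokinin, had no read in any library, and Npy4r at most 1. None of the 9 passed in any comparison between groups by edgeR (0 of 9 under 0.05 before adjustment in RYGB versus sham, 2 in liraglutide+PYY3-36 versus saline), DESeq2 called 0 and limma-voom 1 in the test of any difference, and 7 passed between batches. Their median log2 fold change was 0.02 in RYGB versus sham (-0.0050 over all genes) and -0.28 in liraglutide+PYY3-36 versus saline (0.0010 over all genes).

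Of 9 ligand genes only Npy, which encodes neuropeptide Y, passed the filter, with at least 1 read in all 69 libraries and a mean of 1.73 CPM. It was not called between groups, and was higher in batch B by 2.36 on the log2 scale (adjusted p = 1.04e-10 by edgeR). Gcg, which encodes glucagon and GLP-1, Gip and Ppy had no read, and Pyy had reads in 2 libraries, at most 1 in a library. Of 17 other peptidases that cut gut hormones or belong to these families, 15 were tested and none passed between groups by edgeR, among them Ctsa (lysosomal cathepsin A, mean 165 RPKM), Anpep (aminopeptidase N, 27.2 RPKM) and Dpp8, a cytosolic relative of Dpp4, at 0.19 in RYGB versus sham on the log2 scale (adjusted p = 0.127). Their median in that comparison was -0.05, 1 of the 15 was under 0.05 before adjustment, and DESeq2 and limma-voom each called 1.

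Of 19 tested genes of a list of glucagon-responsive liver genes, 3 passed by edgeR in RYGB versus sham, 2 higher and 1 lower, where 3.12% of all genes did. The list was chosen with earlier results of these data known, so this share is a description only. A part of Gcgr in these differences was not tested. DESeq2 called 3 and limma-voom 4. Ppargc1a, a coactivator that cAMP induces in fasted liver, was at 3.08 to 19.4 CPM in RYGB livers (median 7.05) and at 1.45 to 5.40 CPM in sham livers (median 3.32). It rose by 1.45 on the log2 scale (SE 0.295, adjusted p = 0.00106 by edgeR), by 1.43 in batch A alone (adjusted p = 0.00223), and was at 1.33 in batch B alone (adjusted p = 0.735), which holds 3 RYGB and 5 sham livers. Gys2, the liver glycogen synthase, was at 68.1 to 252 CPM in RYGB livers (median 107) and at 27.9 to 131 CPM in sham livers (median 70.2), a rise of 0.67 (SE 0.172, adjusted p = 0.0143). The value was 0.17 in batch A alone (adjusted p = 0.605) and 1.76 in batch B alone (adjusted p = 0.0153), and the call was lost without RYGB replicate 13 (0.52, adjusted p = 0.0766). Glucagon signalling is known to switch this enzyme off by phosphorylation.

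Slc38a4, an amino acid transporter of hepatocytes, was at 377 to 1351 CPM in RYGB livers (median 865) and at 642 to 1557 CPM in sham livers (median 1197). It fell by 0.47 on the log2 scale (adjusted p = 0.0295 by edgeR), by 0.54 in batch A alone (adjusted p = 0.00613), and was at -0.44 in batch B alone (adjusted p = 0.928). The call was lost without RYGB replicate 12 and without each of 5 sham libraries (adjusted p up to 0.0765). By edgeR the other 16 did not pass, among them Pck1 and G6pc, enzymes of gluconeogenesis, at 0.19 and -0.33, and Sds, serine dehydratase, at -1.33 (adjusted p = 0.151). The median of the 19 was -0.06, and 7 were positive. The list was thus mixed in direction (the plot of glucagon-responsive genes). In the test of any difference among the 8 groups 3 passed by edgeR (4 by DESeq2 and 9 by limma-voom), Ppargc1a (adjusted p = 0.000300), Gys2 (0.000932) and Slc38a3, a glutamine transporter (0.0323), whose call was lost without any 1 of 12 libraries (adjusted p up to 0.0869).

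**Figure D5:**
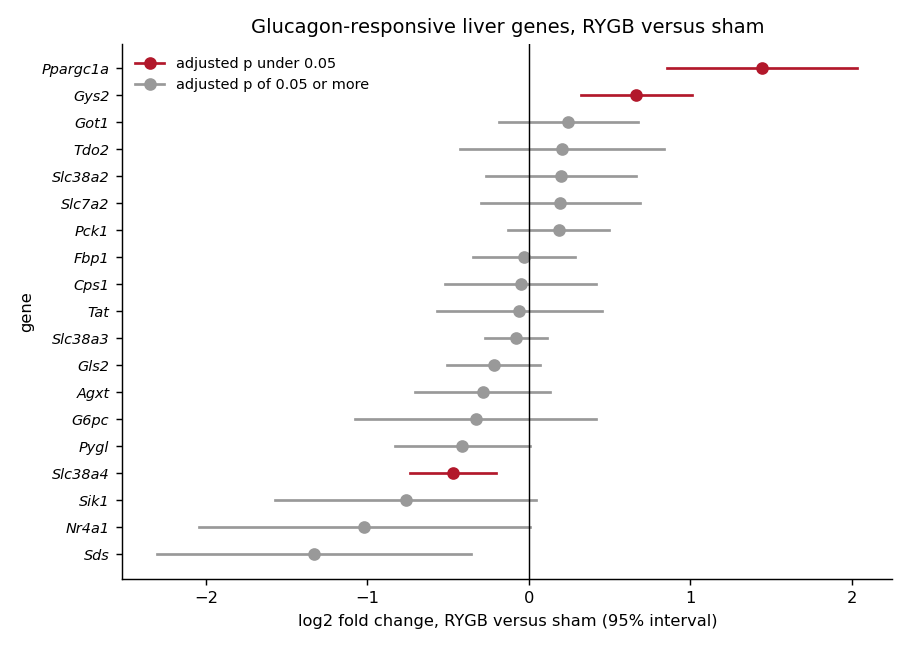
Log2 fold changes of 19 glucagon-responsive liver genes in RYGB versus sham with 95% intervals, ordered by size, in red where the adjusted p was under 0.05. Ppargc1a (1.45) and Gys2 (0.67) are higher and Slc38a4 (-0.47) is lower in RYGB livers, and the other 16 did not pass by edgeR.

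None of these 19 genes passed in the drug comparisons by edgeR, DESeq2 or limma-voom, with 3, 0 and 2 under 0.05 before adjustment for liraglutide+PYY3-36, PYY3-36 and liraglutide. Ppargc1a was at 0.92 in liraglutide+PYY3-36 versus saline (adjusted p = 0.454 by edgeR), at 0.36 in PYY3-36 versus saline (0.972) and at 1.22 in liraglutide versus saline (0.565). Its effect of RYGB minus that of liraglutide+PYY3-36 was 0.53 (95% interval -0.36 to 1.42, adjusted p = 0.590), so a difference between the treatments was not shown. Of 30 genes between receptor and cAMP response, 29 were tested and 1 passed by edgeR in RYGB versus sham, a share near the 3.12% of all genes, and DESeq2 called 1 and limma-voom 4. The 1 gene was Adcy9, an adenylyl cyclase, at 11.2 to 29.0 CPM in RYGB livers (median 18.8) and 7.78 to 19.4 CPM in sham livers (median 11.8). Its log2 fold change was 0.50 (adjusted p = 0.0355), with 0.52 in batch A alone (adjusted p = 0.0421) and 0.36 in batch B alone (adjusted p = 0.979). The call was lost without any 1 of 12 libraries (adjusted p up to 0.0852). The others, among them Gnas, the stimulatory G protein, at 0.02, did not pass in any comparison between groups by edgeR. In the test of any difference DESeq2 called 1 of the 29 and limma-voom 3.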

How the data were processed

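Liver RNA was sequenced from 69 rats as stranded poly(A) libraries with single reads of 75 nt. The authors deposited estimated counts per gene, not normalized, from reads aligned to Rnor_6.0 by STAR 2.7.2b and counted by featureCounts 1.6.4, after demultiplexing (bcl2fastq 2.20.0.422) and trimming (cutadapt 2.5). Reads matching several places or genes were divided, so that 15.9% of values were not whole. All 69 columns were used, with groups and batches taken from the labels. Each library was taken as 1 rat; no 2 libraries of a group agreed within sampling noise.

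Counts were rounded and fitted once in edgeR 4.0.16 (R 4.3.3; filterByExpr, TMM, robust quasi-likelihood test) with terms for group and batch. P-values were adjusted over 16676 genes (Benjamini and Hochberg, threshold 0.05). CPM values are counts per 1000000 of the TMM-scaled total, and RPKM values are CPM per kilobase of combined exon. Of the 6 genes, 5 had a promoter in the RefSeq table. Alternatives were DESeq2 1.42.0, limma-voom 3.58.1, other scaling, filtering and batch settings, a replicate block and leaving out libraries. The limma-voom fit gave each library a quality weight, so that libraries far from the fit counted less. The fit was tested on simulated counts with known changes, which held no difference between batches, unlike these data. Correlation p-values come from 100000 permutations, and likeness from Pearson r of residual log2 CPM over genes with an average of at least 1. Named genes were the 6 members, list genes past the threshold in any comparison with the most abundant of each list, and for each tested member the 5 most and 3 least alike. List genes named for having no reads, for their role or their p were chosen after their values were seen. The genes and lists were chosen with earlier results of these data known.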

Additional observations from a re-analysis of the deposited data

Results flagged for a closer look

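Of the 10 combinations of Gcgr or Dpp4 with a group of 4 to 10 libraries, 1 had a single library far from the others, where chance gives about 1 in 20 groups. For Gcgr, liraglutide replicate 2 had 482 CPM (7364 reads), with a gap to the next library of 0.776 of the range of the group. For Npy1r, PYY3-36 replicate 5 had 0.421 CPM (6 reads) and saline replicate 6 had 0.293 CPM (5 reads), while the other libraries of both groups had none. That chance rate does not apply to Npy1r, since these groups were looked at because they hold a library above 3 reads. Liraglutide replicate 2 was also the shallowest liraglutide library, with a total count of 12560017. The part of depth in its Gcgr level was not tested.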

How the results depend on the processing

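The number of members called was 0 in each of the 8 comparisons by edgeR. It became 1, always Dpp4, with limma-voom in RYGB versus sham and in the test of any difference among the groups (adjusted p = 0.0493), and without the 6 libraries that lay apart in RYGB versus sham. Leaving out any 1 library kept it at 0 (adjusted p of Dpp4 in RYGB versus sham 0.0988 to 0.338). Genes called in RYGB versus sham went up to 1585 with limma-voom, 931 in batch A alone and 924 without the 6 libraries, and down to 24 in batch B alone, against 520. By DESeq2 and limma-voom they were 3 and 20 with liraglutide+PYY3-36 (1 by edgeR), 2 and 0 with liraglutide (1), 18 and 29 in BWM (7) and 1124 and 2366 in the test of any difference (718), and in Lean limma-voom called 183 (102). Gcgr and Dpp4 were the 2 genes above 3 reads in every library also with any read counted or with unrounded counts.

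Several differences near 0, none called under any setting, changed sign. Without a batch term Gcgr was -0.0041 with liraglutide+PYY3-36, 0.12 with PYY3-36 and -0.0031 in BWM, and Dpp4 -0.051 with PYY3-36 and -0.10 with liraglutide. With limma-voom, Dpp4 was -0.022 with liraglutide+PYY3-36, and Gcgr -0.078 with liraglutide and -0.097 for the effect of RYGB minus that of liraglutide+PYY3-36. Batch A alone gave Dpp4 -0.12 with liraglutide+PYY3-36 and Gcgr -0.28 for that difference of effects, and batch B alone gave Gcgr -0.22 with liraglutide+PYY3-36. Without the 6 libraries Dpp4 was -0.085 with liraglutide+PYY3-36 and -0.025 in Lean, and Gcgr 0.017 with PYY3-36 and -0.23 for the difference of effects. With total count as a covariate Gcgr was -0.030 in RYGB, 0.43 with PYY3-36 and -0.31 for the difference of effects, and Dpp4 -0.036 with liraglutide+PYY3-36, -0.086 with PYY3-36 and -0.061 with liraglutide. Leaving out 1 library, Gcgr ranged from -0.015 to 0.19 in RYGB, -0.17 to 0.095 with PYY3-36, -0.24 to 0.32 with liraglutide and -0.095 to 0.12 for the difference of effects, and Dpp4 from -0.042 to 0.16 with PYY3-36, -0.074 to 0.097 with liraglutide and -0.034 to 0.094 in Lean. The cause was not tested.

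Replicate numbers were not taken to pair the libraries, since in no comparison did every same-numbered pair have a correlation over 0.1 (2 of 12 pairs in RYGB versus sham, 4 of 8 in liraglutide+PYY3-36 versus saline and 5 of 6 in Lean versus sham, with a median of 0.20). Pairs with different numbers were not compared, so these correlations cannot decide whether the libraries are paired. With a replicate block Dpp4 was -0.18 in RYGB versus sham (adjusted p = 0.479), Gcgr was -0.12 with liraglutide, and Gys2, Slc38a4 and Adcy9 lost their calls (adjusted p = 0.305, 0.0668 and 0.153), while Ppargc1a kept it (0.0283). Slc38a4 and Adcy9 also lost them without the filter (0.0540 and 0.0645) and with 55 libraries (0.0549 and 0.0513) and in batch B alone (0.928 and 0.979), and Slc38a4 without a batch term (-0.38, adjusted p = 0.194).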
